A study of Mus musculus with 4 samples.

Results

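Expression of 10 genes used as markers of mammary stem and progenitor cells was examined in cultured mouse mammary tumor cells. The 10 genes were Bmi1, Cd44, Cd24a, Aldh1a1, Aldh1a3, Prom1, Procr, Lgr5, Sox9 and Epcam, found by symbol among the 38713 genes with usable values, and all 10 were present. RNA had been sequenced from 4 tumor-derived lines on a C57BL/6 background, 1 library each. The JNK_WT lines (n = 2, replicates 1 and 2) came from tumors with the genotype p53-/-. The JNK_KO lines (n = 2, replicates 1 and 3) came from p53-/- JNK-/- tumors, which also lack the kinases JNK1 and JNK2, encoded by Mapk8 and Mapk9. Loss of p53 is therefore shared by both groups, which differ by label in JNK. Recombination was driven by Wap-Cre, which is active in luminal cells of the lactating mammary gland, in parous females. Each line stands for 1 tumor after passage in culture. The p-values and SEs of the gene tests rest on the spread between 2 lines of a genotype, drawn toward a trend over all genes tested. The study asked whether JNK acts in tumor stem cells, and it addressed that question by sphere culture. In those spheres it also measured Bmi1, Nanog and Pou5f1 mRNA by RT-PCR and found no significant difference between genotypes. The libraries here are from established lines.

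The mammary gland is built of an inner luminal and an outer basal layer, and cells able to rebuild it are usually enriched by surface proteins. CD44 is a receptor for hyaluronan, CD24 (encoded by Cd24a) is a small lipid-anchored glycoprotein, and EPCAM is an epithelial adhesion protein. Gates on these proteins separate luminal, basal and stem-enriched fractions. PROCR is the endothelial protein C receptor, LGR5 a receptor for R-spondins and prominin-1 (Prom1) a membrane protein of cell protrusions. ALDH1A1 and ALDH1A3 oxidise retinaldehyde and contribute to the aldehyde dehydrogenase activity measured in progenitor assays. BMI1 is a subunit of polycomb repressive complex 1, and SOX9 is a transcription factor of luminal progenitors.

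Because JNK phosphorylates JUN, a subunit of the transcription factor AP1, RefSeq promoter windows (GRCm38.p6, 250 bases before to 50 after a transcript start) were searched for the AP1 motif TGANTCA, which reads the same on both strands. Windows were found for 6 of the 10 markers, 8 windows in all, and none was found for Cd24a, Aldh1a3, Lgr5 and Sox9. The motif was in 4 of the 8 windows, those of Procr, Prom1 (both of its windows) and Aldh1a1 (1 of 2), and in 7.81% of all 32851 windows. The transcript start behind the Aldh1a1 window with the motif was not among the starts in GENCODE M21. A match describes letters, not binding. The 4 stretches are shown 5′ to 3′ on the strand of the gene, with the motif in capitals.

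Procr (chr2:155751053-155751079, plus strand, motif 154 bases upstream): cccaccccccTGACTCAgcggcgacct

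Prom1 (chr5:44101808-44101834, minus strand, motif 88 bases upstream): cccgtggtccTGACTCAggcaccctta

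Prom1 (chr5:44094941-44094967, minus strand, motif 189 bases upstream): gactgtcctcTGAATCAtcctatcttg

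Aldh1a1 (chr19:20492516-20492542, plus strand, motif 57 bases upstream): aaatgtcatcTGACTCAgtggggaaac

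The windows differed in CpG dinucleotides. Bmi1 held 23 of them in 300 bases, Procr 13, Epcam 11 and Cd44 6, while Prom1 held 10 and 4 and Aldh1a1 3 and 1.

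Values were FPKM, a read abundance scaled to transcript length and to the mapped reads of the library, so that levels of different genes can be set side by side. They are listed in the order JNK_WT replicates 1 and 2, then JNK_KO replicates 1 and 3. No read counts were used, so no counting intervals are given, and sequencing depth, read from the steps between low values, differed at most 1.41-fold between libraries. As a check of the labels, Mapk8 was at 23.9 and 19.1 FPKM in the JNK_WT lines, compared with 4.30 and 4.27 FPKM in the JNK_KO lines. Mapk9 was at 29.7 and 24.3 FPKM against 12.6 and 8.66 FPKM in the same order. Both were lower in both JNK_KO lines, although neither passed the test used below (limma adjusted p = 0.191 and 0.429). The epithelial label held in all 4 libraries, since the luminal keratin gene Krt8 lay between 278 and 1045 FPKM. All 7 endothelial markers and all 6 adipocyte markers were under 1 FPKM in every library. Markers of leukocytes and fibroblasts were mixed. Of 8 leukocyte markers 2 reached 1 FPKM in at least 2 libraries, Cd68 with up to 19.95 FPKM and Csf1r with up to 1.82 FPKM, while Ptprc was at 0.0134 FPKM or less. Of 10 fibroblast markers 7 did so, among them Vim with up to 500 FPKM, Dcn with up to 162 FPKM and Pdgfra with up to 24.7 FPKM, while Col1a1 was at 0.527 FPKM or less.

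The markers covered a wide range of levels. Epcam had the highest mean over the 4 libraries at 356 FPKM, followed by Cd24a at 205, Cd44 at 172, Sox9 at 73.3, Bmi1 at 27.9 and Procr at 15.4 FPKM. These 6 genes were above 1 FPKM in every library. Aldh1a3, Prom1 and Aldh1a1, with means of 3.64, 0.667 and 0.616 FPKM, reached 1 FPKM in a single library each, and Lgr5, with a mean of 0.0574 FPKM, in none. The ranges over libraries of every pair of neighbours in this order overlapped. Within each library, however, Cd44 lay above Sox9, Aldh1a3 above Prom1 and Aldh1a1 above Lgr5. Cd44 and Sox9 were nearly equal in JNK_WT replicate 2, at 133.8 and 133.2 FPKM. The other neighbours changed order between libraries, so that their order is not resolved. The cell surface genes Epcam, Cd24a and Cd44 together made up 84.3% to 88.7% of the summed FPKM of the 10 genes. Epcam lay above 95.3% to 99.1% of the tested genes of its library, and Cd44 and Cd24a above 93.0% to 98.1%.

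**Figure D1:**
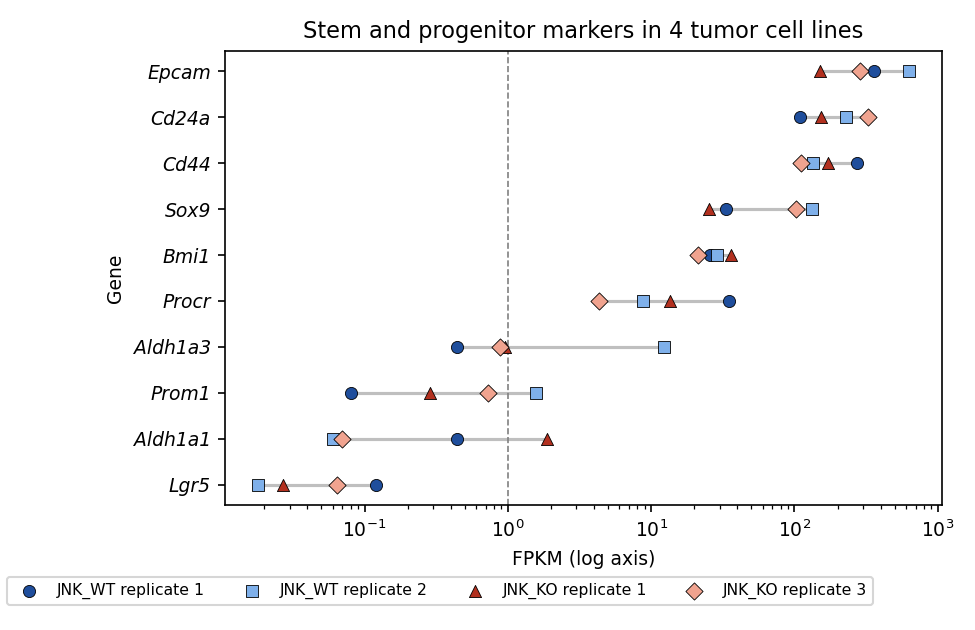
FPKM of each marker (log axis) in the 4 tumor cell lines, 1 point per library, ordered by the mean over libraries, with the dashed line at 1 FPKM. The upper 6 genes lie above 1 FPKM in all libraries, and Lgr5 lies at 0.120 FPKM or less.

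To ask whether JNK loss altered these genes, JNK_KO and JNK_WT lines were compared on log2(FPKM + 1) with limma across all 12998 genes with at least 1 FPKM in at least 2 libraries. The filter kept 6 of the 10 markers, and Aldh1a1, Aldh1a3, Prom1 and Lgr5 were not tested. No marker was called different at an adjusted p under 0.05 with a log2 difference over 0.75 (0 of 6, against 0 or 0% of all genes tested). The number with an unadjusted p under 0.05 was 0 of 6 among the markers, beside 992 of all 12998 genes tested. With so small a share over all genes, 0 of 6 does not set the markers apart. A log2 difference over 0.75 in either direction was found for 2 of 6 markers, Epcam and Procr, beside 15.7% of all genes. Both were lower in JNK_KO cells, as were 6.43% of all genes by that much. The groups did not overlap for 1 of 6 markers, beside 35.0% of all genes. That gene was Epcam, for which both JNK_KO lines were lower, a pattern found in 16.7% of all genes. The median log2 difference was -0.42 over the 6 markers and 0.01 over all genes tested. In bulk libraries, fewer cells that express a gene and less RNA per cell cannot be told apart.

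**Figure D2:**
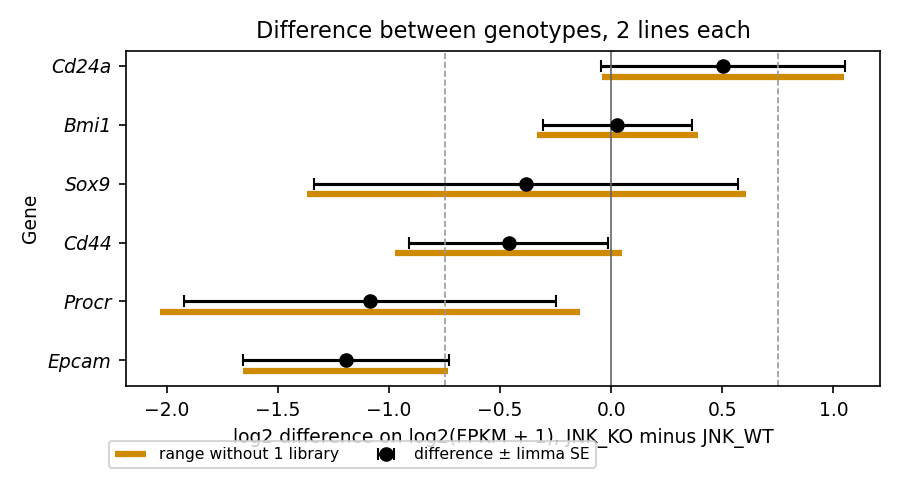
Log2 difference between JNK_KO and JNK_WT lines (2 lines each) for the 6 tested markers, with limma standard errors as black bars and, in orange, the range when 1 library is left out. Dashed lines mark 0.75 in either direction, and the orange range stays on one side of 0 for Epcam and Procr.

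Epcam (chromosome 17, 87635979 to 87651129, plus strand) had the largest difference of the 6 tested markers. It was at 360 and 630 FPKM in the JNK_WT lines, compared with 150 and 286 FPKM in the JNK_KO lines. Each JNK_KO line lay below both JNK_WT lines, with a gap between the nearest lines that was smaller than the spread within either group. The mean was 495 ± 191 FPKM for the JNK_WT lines, whereas the JNK_KO lines averaged 218 ± 95.9 FPKM (SD over n = 2 lines of each genotype). On the log2 scale this was -1.19 (SE 0.46, limma adjusted p = 0.665). Leaving out JNK_KO replicate 1 brought the difference to -0.73, and leaving out JNK_WT replicate 2 to -0.79. The epithelial cadherin Cdh1 was at 121 and 115 FPKM in the JNK_WT lines, compared with 58.4 and 127 FPKM in the JNK_KO lines, and its groups overlapped. The intermediate filament gene Vim, a mesenchymal marker, was at 331 and 47.2 FPKM in the JNK_WT lines, compared with 500 and 159 FPKM in the JNK_KO lines. Epcam was highest where Vim was lowest (JNK_WT replicate 2) and lowest where Vim was highest (JNK_KO replicate 1). The ratio of Epcam to Vim FPKM was 1.09 and 13.3 in the JNK_WT lines, in contrast to 0.30 and 1.80 in the JNK_KO lines. Whether Vim-expressing cells account for the Epcam values was not tested.

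Cd24a (chromosome 10, 43578284 to 43584265, plus strand) did not separate the genotypes. It was at 109 and 229 FPKM in the JNK_WT lines, compared with 154 and 328 FPKM in the JNK_KO lines. On the log2 scale the JNK_WT lines differed from each other by 1.07 and the JNK_KO lines by 1.09. The log2 difference between genotypes was 0.50 (SE 0.55, limma adjusted p = 0.979), and it was -0.04 without JNK_KO replicate 3 and -0.03 without JNK_WT replicate 1.

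Cd44 (chromosome 2, 102811141 to 102901665, minus strand) took the reverse order. It was at 273 and 134 FPKM in the JNK_WT lines, compared with 171 and 112 FPKM in the JNK_KO lines. JNK_WT replicate 1, the line with the least Cd24a, had the most Cd44, and JNK_KO replicate 3, with the most Cd24a, had the least. The log2 difference between genotypes was -0.46 (SE 0.45, limma adjusted p = 0.975), and the groups overlapped. It was 0.05 without JNK_WT replicate 1.

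The ratio of Cd44 to Cd24a within a library does not depend on how libraries are scaled against each other. It was 2.50 in JNK_WT replicate 1, 0.583 in JNK_WT replicate 2, 1.11 in JNK_KO replicate 1 and 0.341 in JNK_KO replicate 3. Cd44 thus exceeded Cd24a in both lines numbered 1 and fell short of it in the others, in each genotype. On log2(FPKM + 1) the ratio averaged 0.27 ± 1.48 over the JNK_WT lines and -0.70 ± 1.20 over the JNK_KO lines (SD, n = 2 each). The difference of -0.97 was smaller than the SD of either group, with an exact two-sided permutation p of 0.667, where 2 against 2 libraries cannot give less than 0.33. Without JNK_WT replicate 1 the difference was 0.08, and without JNK_KO replicate 3 it was -0.12. Without JNK_WT replicate 2 or JNK_KO replicate 1 it was -2.01 or -1.82. RNA ratios of a bulk culture do not give the share of cells in a CD44 and CD24 gate.

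**Figure D3:**
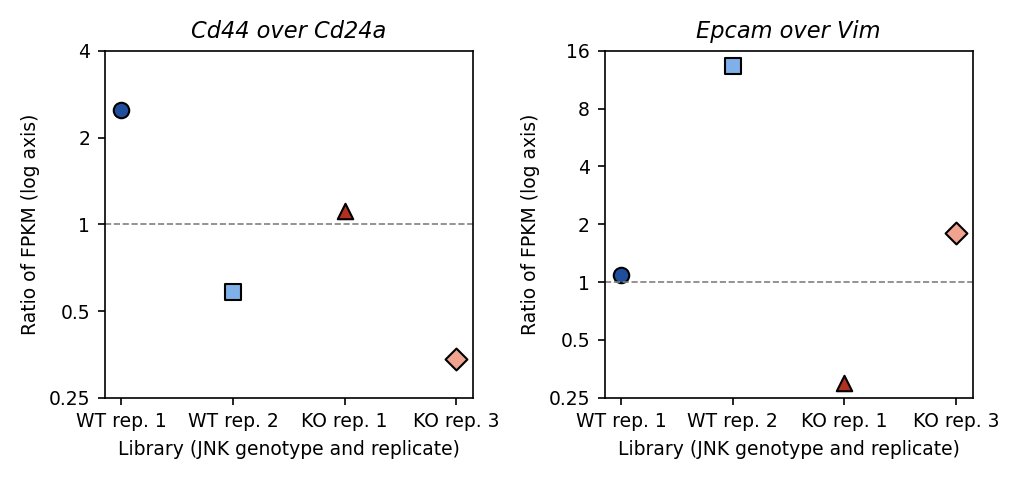
Ratio of Cd44 to Cd24a FPKM (left) and of Epcam to Vim FPKM (right) in each library on log axes, 1 point per library, with the dashed line at a ratio of 1. The Cd44 to Cd24a ratio ranges from 0.341 in JNK_KO replicate 3 to 2.50 in JNK_WT replicate 1, and lines of both genotypes lie on each side of 1.

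Procr (chromosome 2, 155751117 to 155755471, plus strand) varied widely between lines. Its level was 35.0 and 8.73 FPKM in the JNK_WT lines, compared with 13.6 and 4.33 FPKM in the JNK_KO lines. It had the same order of libraries as Cd44, over a wider range, with the highest library 8.08 times the lowest. The groups overlapped, since JNK_KO replicate 1 lay between the JNK_WT lines. The log2 difference was -1.09 (SE 0.84, limma adjusted p = 0.933). It rested on single lines, at -0.14 without JNK_WT replicate 1, -0.36 without JNK_KO replicate 3, -1.81 without JNK_KO replicate 1 and -2.03 without JNK_WT replicate 2.

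Sox9 (chromosome 11, 112782224 to 112787760, plus strand) varied by line rather than by genotype. It was at 33.2 and 133 FPKM in the JNK_WT lines, compared with 25.3 and 102 FPKM in the JNK_KO lines. Within each genotype the lines differed by 1.97 on the log2 scale, while the genotypes differed by -0.38 (SE 0.95, limma adjusted p = 0.9991). The sign of that difference depended on the lines included, from -1.37 without JNK_WT replicate 1 or JNK_KO replicate 3 to 0.60 without JNK_WT replicate 2 or JNK_KO replicate 1. The basal keratin gene Krt14 had a like division, at 7.34 and 443 FPKM in the JNK_WT lines, compared with 26.7 and 313 FPKM in the JNK_KO lines.

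Bmi1 (chromosome 2, 18677018 to 18686629, plus strand) was the steadiest of the expressed markers. It was at 25.5 and 28.9 FPKM in the JNK_WT lines, compared with 35.9 and 21.4 FPKM in the JNK_KO lines. The JNK_WT lines lay between the JNK_KO lines, and the highest library was 1.68 times the lowest. The log2 difference was 0.03 (SE 0.34, limma adjusted p = 0.9991). A share of 21.7% of its 40-base stretches, the read length of the study, also occurs in transcripts of other genes in GENCODE M21, nearly all of them in Gm5946. That gene was at 0.0265 FPKM or less in the same libraries. For the other markers this share was at most 6.15%, and it was 0% for Cd44, Procr and Epcam.

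The aldehyde dehydrogenase markers Aldh1a3 and Aldh1a1 each reached 1 FPKM in a single line. Outside the Aldh1a family, Aldh2 was at 200 to 649 FPKM and Aldh3a1 at 50.1 to 79.7 FPKM, while Aldh1b1 was at 0.483 FPKM or less. The last-named genes were chosen after their values were seen. Aldh1a3 (chromosome 7, 66390890 to 66427517, minus strand) was at 0.439 and 12.3 FPKM in the JNK_WT lines, compared with 0.961 and 0.876 FPKM in the JNK_KO lines. JNK_WT replicate 2 stood 28.0-fold above the other JNK_WT line, and the JNK_KO lines lay between them. The log2 difference of -1.19, which was not tested, became 0.41 without that line. Aldh1a1 (chromosome 19, 20492715 to 20643465, plus strand) ranged lower. Its values were 0.443 and 0.0605 FPKM in the JNK_WT lines, compared with 1.89 and 0.0702 FPKM in the JNK_KO lines. It was highest in JNK_KO replicate 1 and near 0 in the 2 lines with the most Cd24a. The other Aldh1a family genes examined, Aldh1a2 and Aldh1a7, were at most 0.579 and 0.150 FPKM in any library. The summed FPKM of the 4 Aldh1a genes was low, at 1.55 and 12.4 in the JNK_WT lines and 3.08 and 0.996 in the JNK_KO lines. Aldh1a3 made up 28.3% and 99.3% of this sum in the JNK_WT lines and 31.2% and 87.9% in the JNK_KO lines. In JNK_WT replicate 1 the largest share was that of Aldh1a2, at 37.3%. Aldh1a1 made up 28.5% and 0.489% of the sum in JNK_WT cells and 61.3% and 7.04% in JNK_KO cells, in the same order. Aldh1a1 and Aldh1a7 share 40-base stretches (4.15% of those of Aldh1a1), so their values can trade reads.

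Prom1 and Lgr5 were at low levels. Prom1 (chromosome 5, 43993620 to 44102032, minus strand) was at 0.0808 and 1.57 FPKM in the JNK_WT lines, compared with 0.285 and 0.732 FPKM in the JNK_KO lines. Its order of libraries, with JNK_WT replicate 2 above JNK_KO replicate 3 and both above the lines numbered 1, was that of Sox9 at its upper end. A stretch of 424 exonic bases of Prom1 overlaps the antisense gene Gm16401, and the reads were not stated to keep strand. Lgr5 (chromosome 10, 115450311 to 115587780, minus strand) was at 0.120 and 0.0180 FPKM in the JNK_WT lines, compared with 0.0270 and 0.0644 FPKM in the JNK_KO lines. All 4 values were far below 1 FPKM, and the groups overlapped.

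Lines of the same genotype differed in several markers. The median gap between the JNK_WT lines was 1.04 on the log2 scale over the 6 tested markers and 0.43 over all tested genes. Between the JNK_KO lines it was 1.01 over the markers and 0.33 over all genes. For 5 of 6 markers the larger of these gaps exceeded the difference between genotypes, as it did for 76.4% of all genes. JNK_WT replicate 2 and JNK_KO replicate 3 both lay above the lines numbered 1 for Cd24a, Prom1 and Sox9. The highest level was in JNK_WT replicate 2 for 4 markers (Aldh1a3, Prom1, Sox9 and Epcam), in JNK_WT replicate 1 for 3 (Cd44, Procr and Lgr5), in JNK_KO replicate 1 for 2 (Bmi1 and Aldh1a1) and in JNK_KO replicate 3 for 1 (Cd24a). By root mean square distance of centred profiles over the 4 libraries, the closest pairs of the 10 were Bmi1 with Lgr5 (0.30), Bmi1 with Aldh1a1 (0.41) and Cd24a with Prom1 (0.41), which include genes near 0 whose profiles can hardly vary. Among the 6 tested markers the closest were Bmi1 with Cd44 (0.49), Cd44 with Procr (0.53) and Cd24a with Sox9 (0.63).

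**Figure D4:**
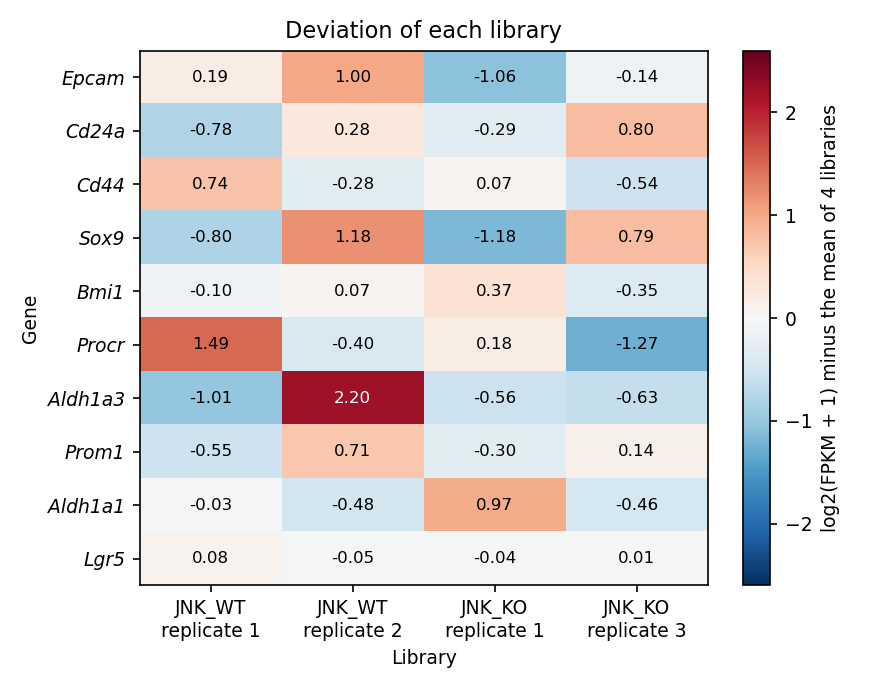
Deviation of each library from the mean of the 4 libraries on log2(FPKM + 1), for each marker in the order of its mean level, with red for higher and blue for lower. Sox9 deviates by 1.18 in JNK_WT replicate 2 and by 0.79 in JNK_KO replicate 3, against -0.80 and -1.18 in the lines numbered 1, and Procr is highest in JNK_WT replicate 1 at 1.49.

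Genes that work with these markers were taken from lists of related function, and the 2 tested genes with the largest differences were named from each. No gene of any list was called, with limma adjusted p of 0.0554 or more. Of the 12 tested genes of retinaldehyde and retinoic acid metabolism, 3 had groups that did not overlap, higher for 2 and lower for 1 in JNK_KO lines. The share over all genes tested, with which each such count is to be compared, was 35.0%. The retinol receptor gene Stra6 was at 14.3 and 0.769 FPKM in the JNK_WT lines, compared with 137 and 46.7 FPKM in the JNK_KO lines, a log2 difference of 3.96 (SE 1.18). The binding protein gene Crabp1 was at 0.394 and 1.08 FPKM in the JNK_WT lines, compared with 6.95 and 1.07 FPKM in the JNK_KO lines, so its difference came from 1 line. The median difference of this list was -0.12.

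All 20 polycomb and Ink4 genes were tested, and groups did not overlap for 9, 3 higher and 6 lower in JNK_KO cells, beside 35.0% of all genes. Phc1, a subunit of the same complex as BMI1, was at 34.3 and 36.4 FPKM in the JNK_WT lines, compared with 17.7 and 16.9 FPKM in the JNK_KO lines, a log2 difference of -0.99 (SE 0.23, limma adjusted p = 0.413). Ezh2, the methyltransferase of polycomb repressive complex 2, was at 77.3 and 64.1 FPKM against 34.5 and 37.1 FPKM, a difference of -0.96 (SE 0.23, limma adjusted p = 0.430). The median difference of the list was -0.09, and Bmi1 itself, as given above, had overlapping groups.

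Of 11 tested R-spondin and LGR genes, groups did not overlap for 4, beside 35.0% of all genes. The 2 that were higher in JNK_KO cells, Rspo1 and Axin2 (the latter named after its values were seen), were under 1 FPKM in both JNK_WT lines and passed the filter only through the JNK_KO lines, so the count by direction depends on the filter. The LGR5 relative Lgr6 lay above Lgr5 in each library, at 16.8 and 10.4 FPKM in the JNK_WT lines, compared with 0.899 and 4.45 FPKM in the JNK_KO lines, a log2 difference of -2.14 (SE 0.62, limma adjusted p = 0.498). The ligand gene Rspo1 was at 0.0608 and 0.00735 FPKM in the JNK_WT lines, compared with 1.91 and 1.65 FPKM in the JNK_KO lines. These JNK_KO values were low in absolute terms.

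In the hyaluronan and CD44 list, groups did not overlap for 4 of 12 tested genes, beside 35.0% of all genes. All 4 were higher in JNK_KO cells, and the median difference of the list was 0.28. Of all 12998 genes tested, groups did not overlap for 4548, of which 2165 were lower in JNK_KO cells and the rest higher. Has2, a hyaluronan synthase, was at 6.13 and 1.83 FPKM in the JNK_WT lines, compared with 14 and 17.8 FPKM in the JNK_KO lines, a log2 difference of 1.90 (SE 0.54, limma adjusted p = 0.485). Cd74, a chaperone of antigen presentation and a partner of CD44, was at 5.04 and 1.73 FPKM against 7.84 and 6.69 FPKM.

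In the protein C list, groups did not overlap for 4 of 6 tested genes, beside 35.0% of all genes. Of the 3 that were higher in JNK_KO cells, 1 (Pros1, named after its values were seen) was under 1 FPKM in both JNK_WT lines and passed the filter only through the JNK_KO lines. Thbd, which encodes thrombomodulin, the partner of PROCR in protein C activation, was at 2.29 and 0.629 FPKM in the JNK_WT lines, compared with 21.4 and 21.9 FPKM in the JNK_KO lines. Its log2 difference was 3.29 (SE 0.44, limma adjusted p = 0.191), opposite in sign to that of Procr. The lipid receptor gene S1pr1 was at 1.06 and 0.768 FPKM against 7.62 and 5.82 FPKM, a difference of 2.00 (SE 0.32, limma adjusted p = 0.242).

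Among 10 tested partners of EPCAM and CD24, groups did not overlap for 3, 1 higher and 2 lower in JNK_KO cells. The share over all genes, for this list and those that follow, was 35.0%. The median difference of the partners was -0.23. Prom2, the relative of Prom1, was at 7.32 and 0.507 FPKM in the JNK_WT lines, compared with 9.74 and 13.4 FPKM in the JNK_KO lines. The tetraspanin gene Cd9 was at 1000.0 and 1368 FPKM against 611 and 604 FPKM, a difference of -0.94 (SE 0.28, limma adjusted p = 0.519). In the SOX and SNAI list, groups did not overlap for 2 of 7 tested genes, both lower in JNK_KO cells and both SOX genes, and the median difference was -0.15. Sox4 was at 103 and 116 FPKM in the JNK_WT lines, compared with 54.9 and 71.0 FPKM in the JNK_KO lines, and Sox13 at 4.93 and 7.28 FPKM against 2.30 and 3.54 FPKM. Of 11 further stem and progenitor markers tested, groups did not overlap for 2, 1 in each direction, and the median difference was -0.07. Ly6a, which encodes the surface protein SCA-1, was at 70.9 and 129 FPKM in the JNK_WT lines, compared with 273 and 555 FPKM in the JNK_KO lines, a log2 difference of 2.01 (SE 0.49, limma adjusted p = 0.430). Nes was at 16.1 and 4.76 FPKM against 5.47 and 0.601 FPKM, with overlapping groups. Nanog and Pou5f1, which the study measured in spheres, did not pass the filter and were named after their values were seen. Nanog was at 0.498 and 0.615 FPKM in the JNK_WT lines, compared with 0.301 and 0.301 FPKM in the JNK_KO lines. It was thus lower in both JNK_KO lines, but under 1 FPKM in every library. Pou5f1 was at 0.382 FPKM in JNK_WT replicate 2 and at 0 FPKM in the other libraries.

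**Figure D5:**
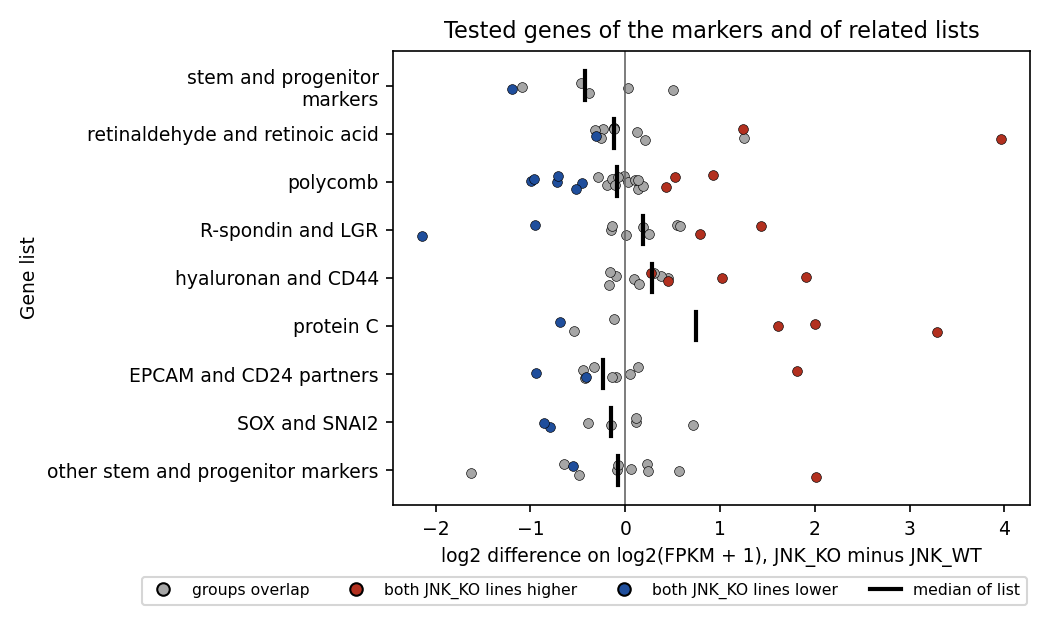
Log2 difference between JNK_KO and JNK_WT lines on log2(FPKM + 1) for the tested genes of the marker set and of 8 related lists, 1 point per gene that passed the filter, with the median of those genes as a black bar. Points of the markers lie between -1.19 and 0.50, and Epcam is the only marker whose groups do not overlap.

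Lineage markers of the other cell types were set beside these values. In the luminal list groups did not overlap for 2 of 10 tested genes, 1 in each direction, and the median difference was -0.45. The share over all genes, for this list and those that follow, was 35.0%. Gata3, a luminal transcription factor, was at 1.79 and 1.18 FPKM in the JNK_WT lines, compared with 31.6 and 38.6 FPKM in the JNK_KO lines, a log2 difference of 3.87 (SE 0.31, limma adjusted p = 0.0903). The tight junction gene Cldn4 was at 574 and 430 FPKM against 116 and 437 FPKM. Krt8 was at 1045 and 564 FPKM in the JNK_WT lines, compared with 278 and 526 FPKM in the JNK_KO lines, the other luminal gene besides Gata3 whose groups did not overlap. The basal list had 5 tested genes and 1 with groups that did not overlap (Tagln, named after its values were seen), lower in JNK_KO cells, and Krt17 was at 11.0 and 202 FPKM against 8.14 and 26.7 FPKM. Summed FPKM of the 10 basal markers was 27.6 and 737 for the JNK_WT lines and 39.5 and 378 for the JNK_KO lines. This was the division that Sox9 and Cd24a had. Krt14 made up most of the larger sum in each genotype (443 and 313 FPKM), and Krt17 and Trp63 were divided likewise. The basal list did not follow it as a whole. JNK_KO replicate 3 had little Krt5 (0.205 FPKM) beside JNK_WT replicate 2 (61.9 FPKM). Acta2 fell from 7.36 FPKM in JNK_WT replicate 1 to 3.19 FPKM in JNK_WT replicate 2. Trp63, Krt5 and Acta2 were named after their values were seen. In the fibroblast list, groups did not overlap for 4 of 7 tested genes, namely Dcn, Pdgfra, Pdgfrb and Fbln1 (the last pair named after their values were seen). All 4 were under 1 FPKM in both JNK_WT lines and passed the filter only through the JNK_KO lines, so their direction was set by the filter and is given as a description. Dcn was at 0.430 and 0.389 FPKM in the JNK_WT lines, compared with 79.7 and 162 FPKM in the JNK_KO lines, and Pdgfra at 0.325 and 0.183 FPKM against 24.7 and 7.82 FPKM. Summed FPKM of the fibroblast list was 344 and 52.5 for the JNK_WT lines and 614 and 363 for the JNK_KO lines, and in 3 of the 4 libraries most of it was Vim. The defining fibroblast gene Lum was at 0.00840 FPKM or less. Of the 8 leukocyte markers 2 were tested, Cd68 and Csf1r, and both had overlapping groups, with the list summing to between 3.63 and 22 FPKM. The part of any of these genes in the marker values was not tested.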

How the data were processed

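The authors trimmed single-end reads with Trimmomatic, sampled them to a similar number per library, aligned them to mm10 (GRCm38) with TopHat2 2.0.14 and Bowtie2, and deposited FPKM per gene and library from Cufflinks 2.2.1. The annotation they used and any further scaling are not given in the sources used here. Rows whose symbols had become dates (27) or that held no value (1) were dropped from 38741. Groups and replicate numbers came from the sample titles.

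The test was limma 3.58.1 in R 4.3.3 (lmFit, eBayes with trend) on log2(FPKM + 1), two-sided, with Benjamini-Hochberg adjustment over 12998 genes. Fold changes of low genes are understated on this scale. Cuffdiff, the test of the study, needs aligned reads and could not be applied. The fit was tested on simulated data. The markers and lists were chosen with earlier results of these data known. Every marker was named, with the 2 tested genes of largest difference in each list, the Aldh1a family, Krt8, Krt14, Cdh1, Vim, Mapk8 and Mapk9. Markers on 2 lists were counted with the 10 markers only. Adgre1 was matched through the older symbol Emr1. Positions came from GENCODE M21 (GRCm38), matched by symbol. Pseudocounts, filters, scalings, variance models, thresholds and fits without each replicate were varied.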

Additional observations from a re-analysis of the deposited data

How the results depend on the processing

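No paired analysis was possible because a single replicate number, 1, occurs in both genotypes, and the labels tie it to no common litter or day. No marker was called under any pseudocount, filter, scaling, variance model or threshold tried. In the main fit 0 of all 12998 tested genes were called, so a count of 0 does not set the markers apart. At the looser adjusted p threshold of 0.1, Gata3 did pass (limma adjusted p = 0.0903). The share of all genes called in the other fits is not given here. Over pseudocounts, filters and scalings, the smallest limma adjusted p of a tested marker was 0.637, for Epcam with upper quartile scaling. With no filter all 10 markers were tested, with adjusted p of 1.0. Counts of markers over 0.75 and of markers with groups that do not overlap, 2 and 1, stayed within 1.5 times outside the fits without 1 replicate. Leaving out 1 replicate gave 2 to 4 and 2 to 5, where fewer lines per group separate more often by construction. The Cd44 to Cd24a difference of -0.97 ranged from -2.01 to 0.077 without 1 replicate. Of 66 alternative values of the 6 tested markers, 7 changed sign, all without 1 replicate. The ranges there were -0.33 to 0.39 for Bmi1, -0.97 to 0.049 for Cd44, -0.041 to 1.05 for Cd24a and -1.37 to 0.60 for Sox9. Epcam stayed lower in JNK_KO cells in each fit, from -1.66 to -0.73, and Procr from -2.03 to -0.14. With 2 lines per genotype, a lone line is assumed to vary like the others.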

Other observations

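Some further progenitor genes had the division of lines seen for Sox9, and they were chosen after their values were seen. Elf5, a transcription factor of alveolar luminal progenitors, was at 0.158 and 12.4 FPKM in the JNK_WT lines (replicates 1 and 2), compared with 0.50 and 13.5 FPKM in the JNK_KO lines (replicates 1 and 3). Kit, a receptor kinase of luminal progenitors, was at 0.0292 and 5.52 FPKM against 0.403 and 1.42 FPKM in the same order. Notch3 was at 0.366 and 12.5 FPKM against 1.64 and 5.30 FPKM, and the R-spondin receptor gene Lgr4 at 9.67 and 31.5 FPKM against 8.11 and 29.9 FPKM. In each of these genes JNK_WT replicate 2 and JNK_KO replicate 3 lay above the other lines of their genotype, and the genotypes overlapped. Abcg2, a transporter used to mark side population cells, was at 54.0 FPKM in JNK_WT replicate 1 and between 5.0 and 13.0 FPKM in the other libraries.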
